A study of Mus musculus with 7 samples.

Results

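Expression of 10 genes that encode the histone methyltransferase DOT1L, its partners and the core subunits of the super elongation complex was examined in lin- bone marrow cells of *HRP-2* wild type and knockout mice. The genes were taken by name, as the list *Dot1l*, *Mllt6*, *Mllt10*, *Mllt1*, *Mllt3*, *Aff1*, *Aff4*, *Ell*, *Ccnt1* and *Cdk9*, with no threshold on a measured value. All 10 were found among the 25033 gene symbols of the count files, and all 10 passed the filter on low counts, which left 11265 genes for testing. The wild type group (WT) was 3 Hrp2+/+ mice and the knockout group (KO) was 4 Hrp2-/- mice. The knockouts carried the tm1b (KOMP) allele of Hdgfrp2 on C57BL/6N, a systemic knockout that is not limited to blood cells, and no further allele or treatment is named for either group. The mice were 6 to 8 weeks old, so the KO mice are those that lived to that age, and the labels do not give their sex. Cells came from femur and tibia after lysis of red cells and were depleted of lineage-positive cells, so each sample is a mixture of progenitors defined by what was removed.

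DOT1L places methyl groups on a lysine in the globular core of histone H3 along transcribed genes. It works with the proteins AF10 (*Mllt10*) and AF17 (*Mllt6*), and with ENL (*Mllt1*) or AF9 (*Mllt3*), which read acylated histones through a YEATS domain. The super elongation complex joins the scaffolds AFF1 or AFF4 to ENL or AF9, to an ELL elongation factor and to P-TEFb, the pair of the kinase CDK9 and cyclin T1 (*Ccnt1*) that releases paused RNA polymerase II. Most of these proteins are known as fusion partners of MLL in leukemia, and MLL fusions bring both complexes to MLL target genes. MLL itself binds HRP-2 and its paralog LEDGF/p75. The comparison therefore addressed whether the loss of HRP-2 is accompanied by a change in the transcripts of this machinery in cells that carry no fusion.

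None of the 10 genes passed the test of KO against WT. At an adjusted p under 0.25, the threshold of the study, edgeR (quasi-likelihood, Benjamini-Hochberg over all genes) called 0 of 10, and the adjusted p was 0.999 for each gene. Among all genes tested the share called was 0.0178%. None of the 10 had an unadjusted p-value under 0.05, against 3.63% of all genes tested, and DESeq2, limma-voom and edgeR's likelihood ratio test also called 0 of 10. These tools called 0.194%, 0.0266% and 0.266% of all genes at the same threshold. The values of the genotypes overlapped for each of the 10 genes, whereas they did not for 5.16% of all genes, with KO higher for 2.37% and lower for 2.79%. The 95% intervals of the log2 fold changes reached from −0.74 to 0.46 over the 10 genes, so that each interval left out a change by 1 in either direction. Without KO replicate 3, a mouse that stood apart from the others as described next, 0 of 10 genes were called and their values still overlapped, where 0.0270% of all genes were called and 9.23% did not overlap.

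The libraries were made from 3′ ends, with 1 fragment per transcript, so a gene's read count does not grow with its length and levels of different genes are compared here as CPM, the reads of a gene scaled to a common library size with edgeR's TMM factors. Each library held between 3525665 and 5605158 reads on genes, of which the 10 genes took between 0.0551% and 0.0636%. The knocked-out gene, listed as *Hdgfl2*, had 228, 156 and 168 reads in WT replicates 1 to 3 and 13, 3, 8 and 2 reads in KO replicates 1 to 4, a log2 fold change of −5.09 (adjusted p of 1.38e-07, edgeR). The sources used here do not say whether the 3′ end lies in the deleted part. The ribosomal precursor *Rn45s* took from 4.94% to 20.6% of the reads. KO replicate 3 stood apart, with *Ddx3y*, a Y-linked gene, at 104 CPM and *Xist* at 0.561 CPM, where the other 6 mice had at most 0.777 CPM of *Ddx3y* and at least 229 CPM of *Xist*. None of 8 marker genes of stem and progenitor cells was at or under 3 reads in every mouse, and their summed level was 6281 to 8165 CPM in WT and 5949 to 7861 CPM in KO mice. *Mpo* alone made up 79.0% to 83.7% of this sum, and the other 7 genes summed to 1241 to 1441 CPM in WT and 1202 to 1377 CPM in KO. The sources used here do not list the cells that the depletion removes. Among markers of other cell types, 8 of neutrophils summed to 7684 to 10696 CPM in WT and 8751 to 23932 CPM in KO. The 7 macrophage markers summed to 303 to 372 CPM in WT and 227 to 271 CPM in KO. *Vcam1* had the highest level of the 7, with means of 188 CPM in WT and 149 CPM in KO. *C1qa*, *C1qb*, *C1qc* and *Mrc1* also had lower means in KO, while *Cd163* had 11.5 CPM in WT and 16.6 CPM in KO. *Adgre1* had means of 9.75 CPM in WT and 9.67 CPM in KO. The 6 eosinophil, basophil and mast cell markers summed to 4135 to 4539 CPM in WT and 2820 to 3851 CPM in KO. The summed levels of B cell, T cell and megakaryocyte markers were 63.2 to 165, 112 to 130.2 and 223 to 363 CPM in WT, and 78.7 to 251, 76.8 to 144 and 103 to 882 CPM in KO. The highest megakaryocyte value was that of KO replicate 4, where the other KO mice had at most 189 CPM, and the highest neutrophil value was that of KO replicate 3, where the next was 15145 CPM. Erythroid markers summed to 20.8 to 48.4 CPM in WT and 16.7 to 69.5 CPM in KO, and the globin genes *Hba-a1* and *Hbb-bs* were the markers at or under 3 reads in every mouse. The part of these cells in the values below was not tested. In such bulk samples fewer cells of a type and less RNA per cell cannot be told apart.

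**Figure D1:**
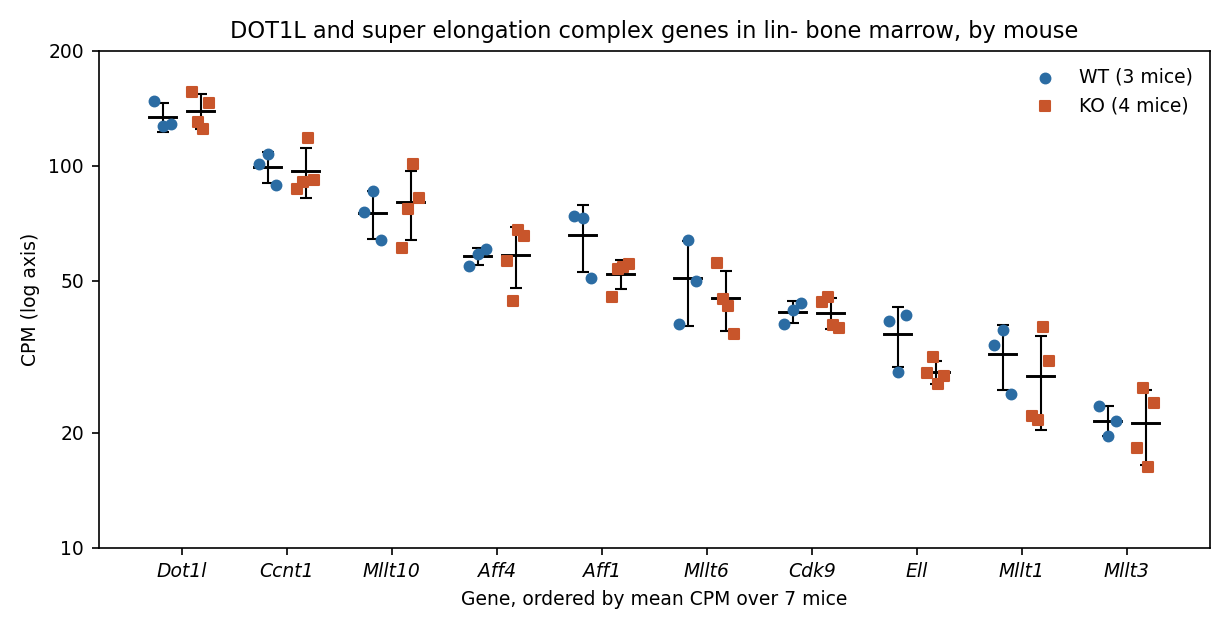
Level of each of the 10 genes in each mouse, in CPM on a log axis, with WT as circles and KO as squares. Horizontal lines are group means and error bars are SD, with 3 WT and 4 KO mice, and for every gene the KO values overlap the WT values.

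By mean CPM over the 7 mice the order was *Dot1l* (137), *Ccnt1* (97.9), *Mllt10* (78.1), *Aff4* (58.3), *Aff1* (58.0), *Mllt6* (47.5), *Cdk9* (41.4), *Ell* (32.0), *Mllt1* (29.9) and *Mllt3* (21.3). These means lay between the 42.8 and 88.2 percentiles of all genes tested. *Dot1l* was the one gene whose range over the mice did not overlap that of its neighbour in the order. *Ccnt1* was above *Mllt10*, and *Mllt10* above *Aff4*, in 7 of 7 mice, although their ranges overlapped. *Aff4* and *Aff1*, *Mllt6* and *Cdk9*, and *Ell* and *Mllt1* were each in the order of their means in 4 of 7 mice, so these neighbours did not differ beyond their spread.

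Most start sites of the genes were rich in GC, with 3 exceptions. RefSeq lists 14 start sites for the 10 genes, and all 10 genes were matched by symbol. In windows of 300 bases, from 250 bases before each start to 50 after it, the median GC content was 73.3%, with a range of 42.3% to 79.3%, against a median of 52.7% over all 32851 start sites of the table. The ratio of observed to expected CpG was 0.916 at the median, with a range of 0.272 to 1.22, against 0.384 over all start sites. The GC content was 42.3% and 42.7% at 2 starts of *Mllt10* and 44.7% at 1 start of *Mllt3*, below the median of all start sites, and each of these genes has another start, at 78.3% and 70.3%. A GC box, spelled GGGCGG on either strand, was found at 10 of 14 start sites and in 9 of 10 genes, against 35.7% of all start sites. The 3 other spellings searched were CCAAT at 5 of 14 (37.4% of all), TATAAA at 0 of 14 (13.6% of all) and CACGTG at 1 of 14 (7.15% of all), each on both strands. A match is a description of the letters and not a bound site.

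The windows of 3 genes with a single start site are shown, *Dot1l* as the gene with the highest level, *Ell* as a gene far from 0 in the comparison of the genotypes, and *Cdk9* as the one nearest to 0. They are on GRCm38.p6, at chr10:80754953-80755252 on the plus strand, chr8:70539425-70539724 on the plus strand and chr2:32712735-32713034 on the minus strand. Capitals mark GGGCGG and CCAAT on either strand, the rest is in lower case, and each is written 5′ to 3′ along its gene.
*Dot1l*: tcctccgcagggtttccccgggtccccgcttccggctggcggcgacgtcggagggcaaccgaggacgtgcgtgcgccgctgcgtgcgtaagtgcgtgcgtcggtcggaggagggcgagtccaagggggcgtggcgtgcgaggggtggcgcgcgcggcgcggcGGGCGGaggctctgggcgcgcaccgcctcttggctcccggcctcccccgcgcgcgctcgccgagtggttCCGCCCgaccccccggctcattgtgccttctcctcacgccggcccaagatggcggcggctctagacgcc
*Ell*: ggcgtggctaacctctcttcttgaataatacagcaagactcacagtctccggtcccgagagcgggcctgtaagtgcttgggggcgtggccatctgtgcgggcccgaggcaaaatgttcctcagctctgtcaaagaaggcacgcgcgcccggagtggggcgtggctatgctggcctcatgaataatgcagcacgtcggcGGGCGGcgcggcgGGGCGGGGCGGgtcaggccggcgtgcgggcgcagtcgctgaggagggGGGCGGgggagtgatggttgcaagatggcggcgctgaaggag
*Cdk9*: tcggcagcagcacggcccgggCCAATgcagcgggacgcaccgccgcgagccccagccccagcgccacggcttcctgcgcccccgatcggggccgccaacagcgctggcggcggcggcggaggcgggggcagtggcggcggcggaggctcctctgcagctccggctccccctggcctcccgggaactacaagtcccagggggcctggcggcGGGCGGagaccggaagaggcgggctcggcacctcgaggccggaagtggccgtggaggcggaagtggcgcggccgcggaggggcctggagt
*Dot1l* held 2 GC boxes and no CCAAT. *Ell* held 4 GC boxes, of which 2 overlap by 1 base, and no CCAAT. *Cdk9* held 1 of each.

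*Dot1l*, the methyltransferase, lies on chromosome 10 of GRCm38 from 80755206 to 80795461. It stood at 148, 127 and 128 CPM in WT replicates 1 to 3 and at 156, 129.9, 124 and 146 CPM in KO replicates 1 to 4. The KO values reached above and below the WT range. The means were 134 ± 11.5 CPM (SD, n = 3) and 139 ± 14.7 CPM (SD, n = 4), with a log2 fold change of 0.05 (95% interval −0.24 to 0.34, edgeR). This was the narrowest interval of the 10 genes. The annotated antisense gene *Gm17151* overlaps *Dot1l*, and the strand that was counted is not stated.

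Over 8514 other genes with a mean of at least 10 CPM, the ones whose levels followed *Dot1l* most closely over the 7 mice, after the genotype means were removed, were *Pitpna* (Pearson r = 0.988), *Golm1* (r = 0.977) and *Tgif2* (r = 0.976). In all 55 of these genes had r above 0.9. With 7 points per gene and so many genes, this is a description of these libraries.

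*Mllt10* and *Mllt6* encode AF10 and AF17, paralogs that hold DOT1L through a leucine zipper region. *Mllt10*, on chromosome 2 from 18055237 to 18212388, was at 75.5, 86.0 and 64.0 CPM in the WT mice and at 60.8, 76.9, 101 and 82.5 CPM in the KO mice. *Mllt6*, on chromosome 11 from 97663414 to 97685463, was at 38.6, 63.8 and 49.95 CPM in WT and at 55.8, 44.7, 43.0 and 36.4 CPM in KO. For both genes the highest mouse had over 1.5 times the level of the lowest within a genotype, except for *Mllt10* in WT mice. The log2 fold changes were 0.10 (95% interval −0.27 to 0.46) for *Mllt10* and −0.17 (95% interval −0.59 to 0.25) for *Mllt6*, by edgeR. *Mllt10* overlaps *Dnajc1*, which lies on the opposite strand.

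*Mllt1* and *Mllt3* encode ENL and AF9, which take part in both complexes. *Mllt1* was at 34.0, 37.2 and 25.2 CPM in the WT mice and at 22.2, 21.6, 37.9 and 30.9 CPM in the KO mice. Of the KO mice 2 were below the WT range and 1 was above it. The log2 fold change was −0.19 (95% interval −0.68 to 0.29, edgeR). *Mllt1* lies on chromosome 17 from 56892611 to 56935415, 792 kb from the end of *Hdgfl2*, with 30 protein-coding genes between them, so the allele of the knockout is linked to it. *Mllt3*, on chromosome 4 from 87769925 to 88033364, was the lowest gene, at 23.5, 19.6 and 21.5 CPM in WT and at 18.3, 26.2, 16.3 and 23.9 CPM in KO. The KO values lay 2 above and 2 below the WT range, and the log2 fold change was −0.03 (95% interval −0.52 to 0.46, edgeR). At 70 to 126 reads per library *Mllt3* had the lowest counts of the 10 genes, and counting error alone gives a coefficient of variation of 10.3%.

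*Aff1* and *Aff4* encode the scaffolds of the super elongation complex. *Aff4*, on chromosome 11 from 53350833 to 53421830, was at 54.6, 58.8 and 60.6 CPM in WT mice and at 56.4, 44.3, 67.8 and 65.5 CPM in KO mice. The group means were nearly equal, at 58.0 ± 3.06 CPM (SD, n = 3) and 58.5 ± 10.7 CPM (SD, n = 4), with a log2 fold change of 0.01 (95% interval −0.35 to 0.38, edgeR). *Aff1*, on chromosome 5 from 103692374 to 103855322, had the largest difference of the 10 genes in the fit above. *Ell* was close to it, and had the larger one without WT replicate 2, at −0.47 against −0.26. *Aff1* was at 73.9, 73.1 and 50.7 CPM in WT and at 45.5, 53.6, 54.2 and 55.3 CPM in KO. The KO mice lay close together, and 3 of them were above the lowest WT mouse. The means were 65.9 ± 13.1 CPM (SD, n = 3) and 52.1 ± 4.50 CPM (SD, n = 4), and the log2 fold change was −0.34 (SE 0.17, 95% interval −0.70 to 0.02). Its p in edgeR was 0.0628 unadjusted and 0.999 adjusted. Without WT replicate 3 the values of *Aff1* no longer overlapped and the log2 fold change was −0.50 (edgeR p of 0.0125 unadjusted and 1.00 adjusted). In that comparison of 2 against 4 mice 11.6% of all genes did not overlap.

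*Ell*, which encodes an elongation factor that suppresses pausing of the polymerase, lies on chromosome 8 from 70539457 to 70592858. It was at 39.3, 28.8 and 40.7 CPM in WT and at 28.8, 31.6, 26.9 and 28.2 CPM in KO mice. Of the KO mice 3 were below the WT range, and WT replicate 2 lay among the KO values. The means were 36.3 ± 6.46 CPM (SD, n = 3) and 28.9 ± 1.98 CPM (SD, n = 4), and the log2 fold change was −0.33 (SE 0.19, 95% interval −0.74 to 0.07). Its p in edgeR was 0.102 unadjusted and 0.999 adjusted. Without WT replicate 2 the values did not overlap and the log2 fold change was −0.47 (edgeR p of 0.0327 unadjusted and 0.994 adjusted), where 13.2% of all genes did not overlap. Without KO replicate 2 they did not overlap either, where the share of all genes was 8.98%.

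The subunits of P-TEFb had estimated biological coefficients of variation of 16.1% for *Cdk9* and 15.1% for *Ccnt1*, below the median of 20.2% over all genes. *Cdk9*, the kinase, on chromosome 2 from 32705784 to 32713076, was at 38.6, 42.0 and 43.8 CPM in WT and at 43.9, 45.3, 38.3 and 37.6 CPM in KO mice. The means of 41.5 ± 2.65 CPM (SD, n = 3) and 41.3 ± 3.89 CPM (SD, n = 4) gave a log2 fold change of −0.01 (95% interval −0.37 to 0.36, edgeR), the nearest to 0 of the 10 genes. Its coefficient of variation was 6.39% in WT and 9.42% in KO mice, where counting error alone gives 7.36%. *Ccnt1*, the cyclin, on chromosome 15 from 98538689 to 98570923, was at 101, 107 and 89.3 CPM in WT and at 86.7, 90.6, 118 and 91.7 CPM in KO mice. KO replicate 3 was the highest of the 7 mice and the other 3 KO mice lay close together. The log2 fold change of *Ccnt1* was −0.04 (95% interval −0.35 to 0.28, edgeR). The antisense gene *9330020H09Rik* overlaps *Ccnt1* in the annotation.

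**Figure D2:**
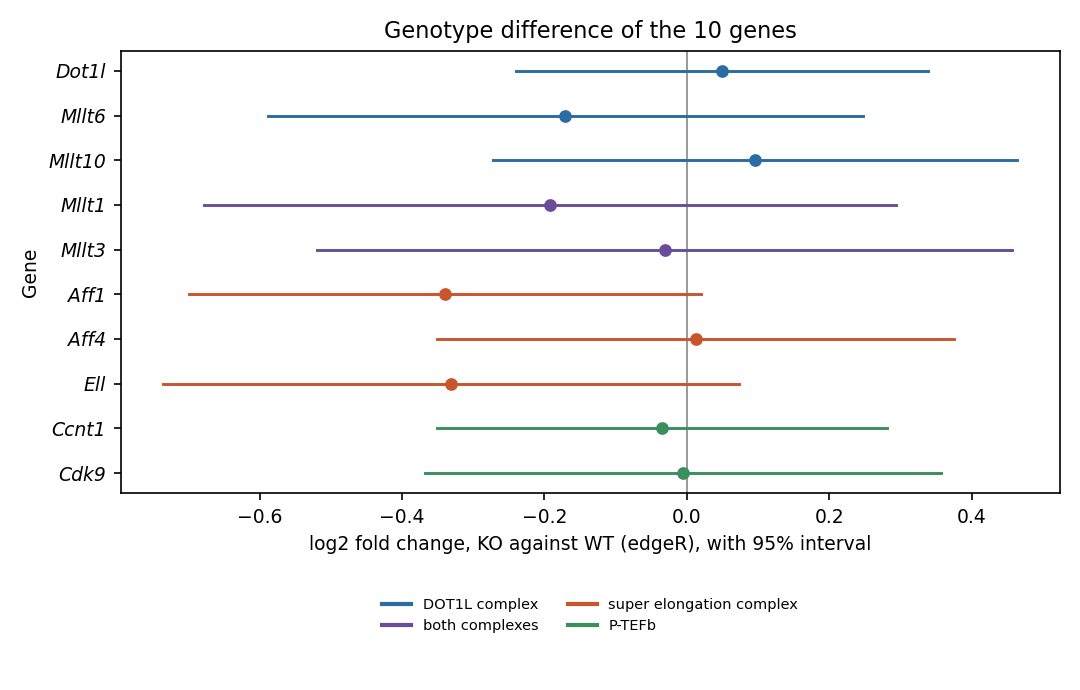
Log2 fold change of KO against WT for each gene (points) with its 95% interval (lines), from edgeR's quasi-likelihood fit on 3 WT and 4 KO mice, coloured by complex. Every interval includes 0, and the points run from −0.34 for *Aff1* to 0.10 for *Mllt10*.

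Over the 10 genes 7 were lower and 3 higher in KO mice, with a median log2 fold change of −0.03, beside −0.0014 over all genes tested. Without WT replicate 2 the split was 4 lower and 6 higher, and with limma-voom 8 lower and 2 higher. The median size of the log2 fold change was 0.07, beside 0.15 over all genes, and the median standard error was 0.17, beside 0.23. The estimated biological coefficient of variation had a median of 16.8% over the 10 genes and 20.2% over all genes. All but *Mllt3* lay above the median level of the genes tested.

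The genes did not share 1 pattern from mouse to mouse. Of the 45 pairs of genes, 16 had a positive Pearson correlation over the 7 mice after the genotype means were removed, and the median was −0.17, with a range of −0.84 to 0.90. *Mllt10*, *Mllt1* and *Ccnt1* were each highest in replicate 2 and lowest in replicate 3 among WT mice, and each highest in replicate 3 among KO mice. In KO replicate 3 *Mllt10* was at 101 CPM and *Mllt1* at 37.9 CPM, both the highest of the 7 mice. *Cdk9* was lower in KO replicate 3, at 38.3 CPM, than in KO replicates 1 and 2. The share of *Rn45s* was 11.8%, 20.6% and 9.43% in WT replicates 1 to 3 and 4.94%, 9.21%, 13.6% and 18.6% in KO replicates 1 to 4. With that share as a covariate, 0 of 10 genes had an unadjusted p under 0.05 in edgeR, against 4.77% of all genes.

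Several of the subunits have a paralog that can take the same place in a complex, so the balance within 5 pairs was compared as the log2 ratio of (CPM + 1) in each mouse. *Mllt1* exceeded *Mllt3* in 6 of 7 mice and took 59.6% ± 5.78 (SD, n = 3) of the reads of the pair in WT and 56.6% ± 10.2 (SD, n = 4) in KO mice. *Mllt6* was below *Mllt10* in every mouse, with 40.1% ± 5.45 (SD, n = 3) and 36.3% ± 8.31 (SD, n = 4) of the pair. *Aff1* and *Aff4* were near balance, with *Aff1* at 52.8% ± 6.37 (SD, n = 3) in WT and 47.4% ± 4.95 (SD, n = 4) in KO. The KO value of the *Aff1* to *Aff4* ratio was lower by 0.31 on the log2 scale (difference −0.31, two-sided exact permutation test, p = 0.2, adjusted p = 0.5 over 5 pairs). It ran from −0.52 without WT replicate 3 to −0.18 without WT replicate 1.

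*Ell* was below its paralog *Ell2* in every mouse, with 43.2% ± 8.15 (SD, n = 3) of the pair in WT and 41.9% ± 4.72 (SD, n = 4) in KO. *Ccnt1* exceeded *Ccnt2*, the gene of cyclin T2, in every mouse. The log2 ratio of *Ccnt1* to *Ccnt2* was 1.28, 2.39 and 1.14 in WT and 1.05, 1.06, 1.36 and 1.05 in KO mice. The high value belonged to WT replicate 2, where *Ccnt2* was at 19.6 CPM, while the other 6 mice had 39.9 to 45.4 CPM. The difference in the mean log2 ratio was −0.47 with all mice (two-sided exact permutation test, p = 0.143, adjusted p = 0.5 over 5 pairs) and −0.08 without WT replicate 2. The differences of the other ratios were −0.16 for *Mllt1* to *Mllt3*, −0.24 for *Mllt6* to *Mllt10* and −0.07 for *Ell* to *Ell2*. When 1 mouse was left out, *Mllt1* to *Mllt3* ran from −0.42 without KO replicate 3 to 0.06 without KO replicate 2. *Mllt6* to *Mllt10* ran from −0.47 without KO replicate 1 to −0.11 without KO replicate 3. *Ell* to *Ell2* ran from −0.34 without WT replicate 2 to 0.10 without WT replicate 1, so the size, and for 2 of these 3 ratios the sign, depended on single mice. With all mice the two-sided exact permutation p of these 3 ratios was 0.714, 0.486 and 0.83, and adjusted over 5 pairs it was 0.83, 0.81 and 0.83. With 7 mice the smallest p is 0.0286, and 1 pair alone at that value would have an adjusted p of 0.143, so a single changed ratio could not have passed 0.05 after adjustment, the threshold used for the ratios.

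**Figure D3:**
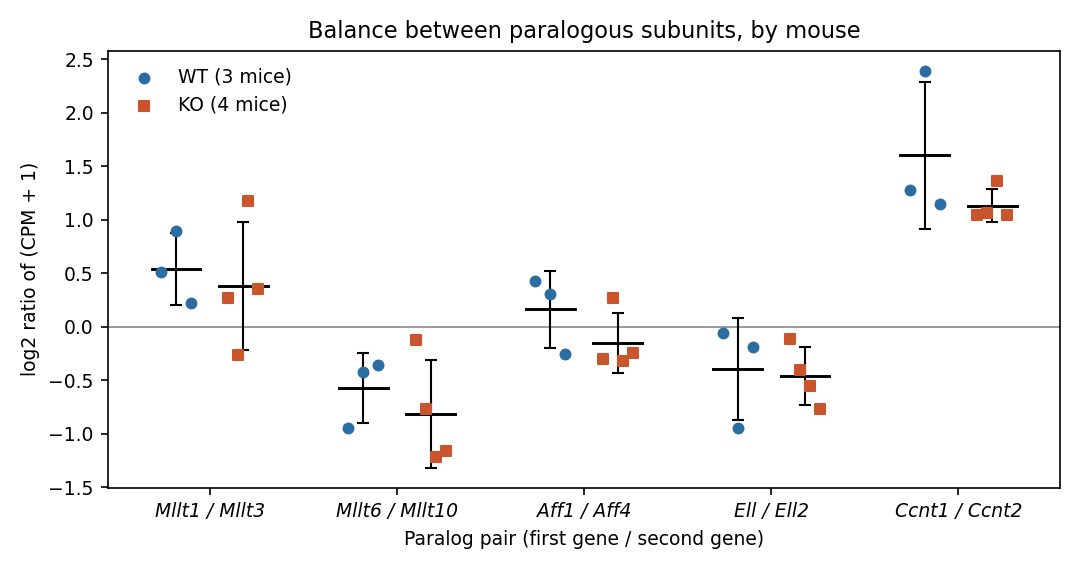
Log2 ratio of (CPM + 1) within 5 pairs of paralogs in each mouse, with WT as circles and KO as squares. Lines are group means and error bars are SD, and the genotypes overlap in every pair, with WT replicate 2 apart from the rest at 2.39 for *Ccnt1* to *Ccnt2*.

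A further 29 genes that work with these complexes were listed by role, of which 26 passed the filter on low counts. In edgeR 0 of the 26 were called at an adjusted p under 0.25 (0.0178% of all genes were), and 3 had an unadjusted p under 0.05, against 3.63% of all genes. These 3 were *Aff3*, *Eaf1* and *Ctr9*. Without WT replicate 3 their unadjusted edgeR p was 0.0463, 0.287 and 0.176. DESeq2, limma-voom and edgeR's likelihood ratio test also called 0 of the 26, beside 0.194%, 0.0266% and 0.266% of all genes. In KO mice 14 of the 26 were higher and 12 lower, and the median log2 fold change was 0.02. For 3 of 26 the genotypes did not overlap, 1 of them lower and 2 higher in KO mice, against 5.16% of all genes. The 3 genes that did not pass the filter were *Aff2*, *Ell3* and *Hexim2*, with at most 9 reads in any library.

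The other subunits of the super elongation complex included the 2 smallest p-values of the 26 genes. Of the 5 tested, 4 were lower and 1 higher in KO mice, with a median log2 fold change of −0.48. *Aff3*, another member of the AFF scaffold family, was at 67.6, 65.5 and 73.3 CPM in WT and at 58.1, 43.2, 38.9 and 56.8 CPM in KO mice. All 4 KO mice lay below the 3 WT mice. The log2 fold change of *Aff3* was −0.48 (SE 0.17), and its edgeR p was 0.0123 unadjusted and 0.999 adjusted. *Eaf1*, which encodes a protein that binds ELL and raises its activity, was at 29.6, 22.4 and 54.7 CPM in WT and at 23.9, 24.9, 17.8 and 19.2 CPM in KO mice. Its log2 fold change of −0.73 (SE 0.26, adjusted p of 0.999, edgeR) rested on WT replicate 3, and was −0.28 without that mouse. *Eaf2*, its paralog, had a log2 fold change of −0.54 (SE 0.31), which was −0.33 without WT replicate 1.

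The regulators of P-TEFb and the PAF1 complex, which couples the moving polymerase to H2B ubiquitylation, were tested as further roles. In the first, all 4 regulators tested had positive log2 fold changes, from 0.04 to 0.32. Of the 6 genes of the PAF1 complex 4 were higher and 2 lower in KO mice. *Hexim1*, the inhibitor that holds P-TEFb in its inactive form, was at 91.0, 63.6 and 72.0 CPM in WT and at 106, 98.7, 80.7 and 90.9 CPM in KO mice, and the groups overlapped. The log2 fold change of *Hexim1* was 0.32, and it was 0.48 without WT replicate 1 and 0.21 without WT replicate 2. *Ctr9*, the scaffold of the PAF1 complex, was at 108, 94.4 and 84.5 CPM in WT and at 107, 112, 127 and 131 CPM in KO mice, with a log2 fold change of 0.32 (SE 0.14, adjusted p of 0.999, edgeR). The 4 genes of H2B ubiquitylation, the mark that stimulates DOT1L, had log2 fold changes between −0.20 and 0.08. The 7 genes listed for the paused polymerase and its pausing factors had log2 fold changes from −0.09 to 0.48. The highest was *Supt4a*, with 21 reads in WT replicate 2 and a 95% interval of −0.31 to 1.27, and the next was 0.13. *Ccnt2* and *Polr2a*, the gene of the largest subunit of RNA polymerase II, were the genes besides *Aff3* whose values did not overlap. Of these, *Polr2a* was named only after its values were seen. *Polr2a* was at 237, 239 and 234 CPM in WT and at 251, 252, 249.6 and 281 CPM in KO mice, a log2 fold change of 0.13 (SE 0.12).

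**Figure D4:**
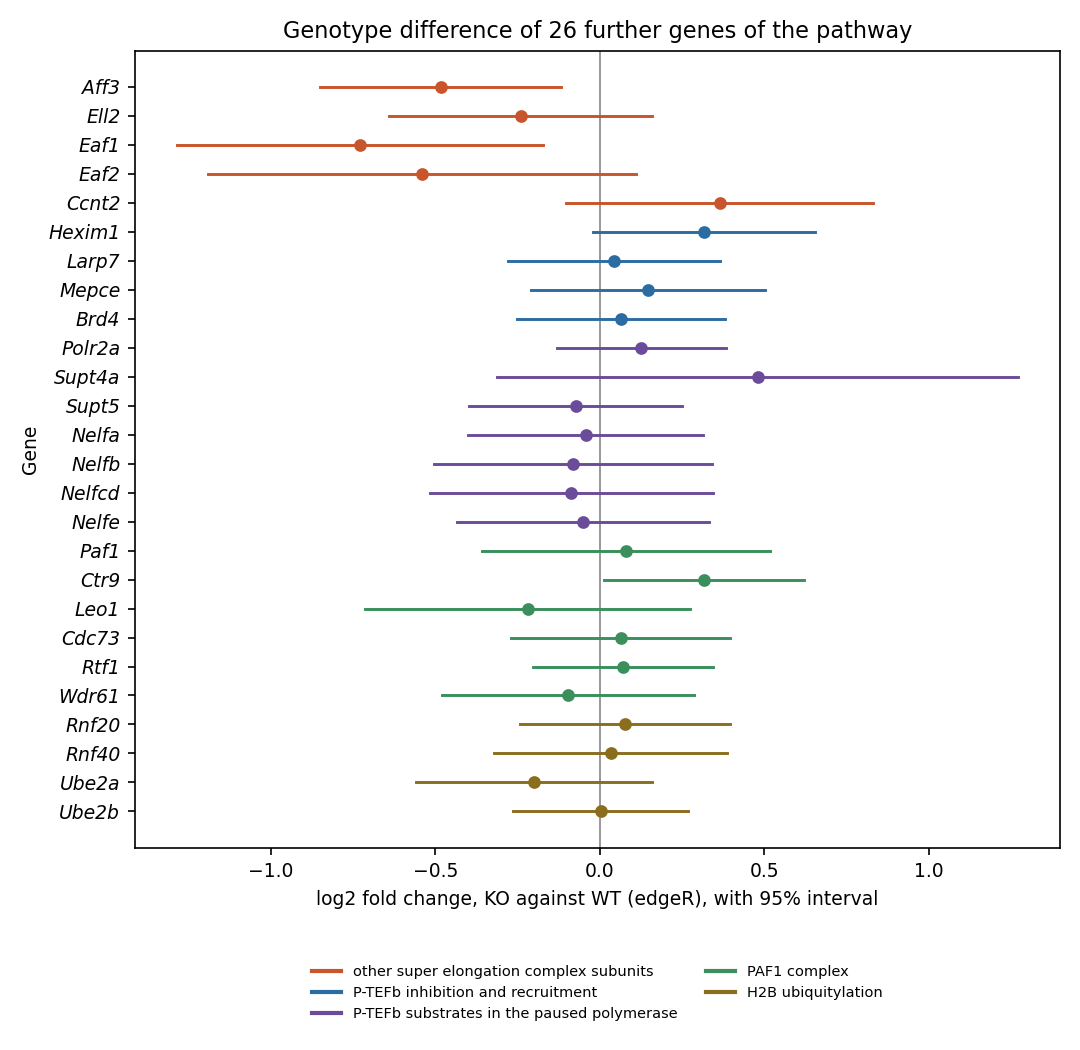
Log2 fold change of KO against WT (points) with 95% intervals (lines) for the 26 further genes tested, coloured by role, from edgeR's quasi-likelihood fit. The intervals of *Aff3*, *Eaf1* and *Ctr9* do not include 0, and none of the 26 genes was called after adjustment.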

How the data were processed

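RNA of lin- bone marrow cells from 3 WT and 4 KO mice was made into 3′ end libraries, from 500 ng each, and sequenced single-end at 75 bp. Per the methods, the authors used STAR both for alignment (GRCm38) and for quantification of Ensembl release 84 genes, and they deposited raw read counts per gene symbol. The strand counted is not given in the sources used here. The 5 tally rows of each file were left out. They held, of all reads counted, 27.0% to 31.6% on no gene and 1.99% to 2.40% that were ambiguous.

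The counts were filtered with filterByExpr, scaled by TMM and tested two-sided with the robust quasi-likelihood method of edgeR 4.0.16 (R 4.3.3), with Benjamini-Hochberg adjustment over all genes. The standard error was the size of the log2 fold change over the square root of F. DESeq2 1.42.0 and limma 3.58.1 (voom) were alternatives. Single ratios were compared with exact permutation tests over 35 splits. The edgeR quasi-likelihood test was tested on simulated data, the other tests were not. At these depths 3 reads are 0.561 to 0.840 CPM, which covers counting error only. Within each genotype no 2 libraries agreed within sampling noise, and the labels call them biological replicates. Coordinates are those of GENCODE M21, which holds 97.6% of the symbols.

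The genes and lists were chosen with earlier results of these data known. Named are the 10 genes, any further gene called or else the 5 with the smallest p, the 3 genes most like *Dot1l* in pattern, *Hdgfl2* and *Rn45s*, with markers by their list totals. *Ell2* and *Ccnt2* are named as paralogs in the 5 pairs. *Ddx3y*, *Xist*, *Polr2a*, *Supt4a*, *Supt5*, *Nelfcd*, *Mpo*, the macrophage markers named singly, the globin genes and the 3 further genes under the filter (*Aff2*, *Ell3* and *Hexim2*) were added after their values were seen.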

Additional observations from a re-analysis of the deposited data

Results flagged for a closer look

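Among 44 results for which the 4 KO mice were compared with each other (39 gene levels and 5 ratios), 6 had a highest or lowest mouse whose gap to the nearest other mouse, over the range, was above Dixon's 95% critical value. Chance would flag about 1 in 20, or 2.2, if the results were independent and each could be flagged. The ratios reuse gene levels, and *Aff2*, with 0 reads in all 4 KO mice, could not be flagged. The 6 can therefore not be weighed against 2.2. *Ccnt1* was at 118 CPM in KO replicate 3, against 86.7 to 91.7 CPM in the other 3 KO mice. The log2 ratio of *Ccnt1* to *Ccnt2* was 1.36 in the same mouse, against 1.05 to 1.06. *Supt5*, the gene of a subunit of the pausing factor DSIF, was lower in that mouse, at 69.1 CPM against 86.9 to 90.2 CPM. The log2 ratio of *Aff1* to *Aff4* was 0.27 in KO replicate 2, against −0.32 to −0.24 in the others. In KO replicate 4 *Polr2a* was at 281 CPM, against 249.6 to 252 CPM, and *Nelfcd*, the gene of a subunit of the negative elongation factor, at 29.4 CPM, against 25.98 to 26.5 CPM.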

How the results depend on the processing

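In 17 other fits 0 of the 10 genes and 0 of the 26 further genes were called (the latter fits were chosen after the data were seen), and the smallest adjusted p of the 10 was 0.949. *Aff1*, *Ell* and *Mllt1* had a negative log2 fold change in all 17, from −0.50 to −0.24, from −0.47 to −0.24 and from −0.37 to −0.08. The sign of the other 7 genes was positive in some fits and negative in others. When each mouse was left out in turn, the number of genes without overlap ran from 0 to 1, and was 1 without WT replicate 2 (*Ell*), WT replicate 3 (*Aff1*) or KO replicate 2 (*Ell*), while 8.98% to 13.2% of all genes did not overlap in these 7 fits. The median log2 fold change of the 10 genes ran from −0.11 to 0.01 in those fits. With the replicate block it was −0.07 and 0 of 10 genes were called. Same-numbered mice did not deviate together, with correlations of −0.02, −0.21 and −0.16, and 0 of 3 WT mice correlated best with their own number. This gave no sign of a pairing by number, although 3 WT mice are too few to exclude one. Over all genes, the number called was 2, but 21 with DESeq2, 41 without a filter on low counts, 30 with edgeR's likelihood ratio test, 3 with limma-voom, 8 with *Rn45s* share as covariate, 2 to 7 without 1 mouse, and 1 with the replicate block or with at least 10 counts in every mouse. The cause was not tested. No ratio of paralogs was called under another pseudocount or without any 1 mouse, where a single ratio could not reach an adjusted p under 0.05, the threshold set for the ratios, and the block gave their differences without a test.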
